A study of Mus musculus with 18 samples.

Results

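The transcripts described here encode the enzymes and transporters that carry glucose to pyruvate and lactate, together with the enzymes that decide where pyruvate goes next. The set holds 34 genes of the 53672 listed in each library, whose rows were found by gene symbol alone. Its members were chosen with earlier results of these data known. All 34 had enough reads to enter the test, which covered 18791 genes in all. They comprise 2 glucose transporters, 2 hexokinases, glucose phosphate isomerase, 3 phosphofructokinase subunits, 4 bifunctional enzymes of the Pfkfb family, 2 aldolases, triosephosphate isomerase, 8 genes of the steps from glyceraldehyde phosphate to pyruvate, 2 lactate dehydrogenase subunits, 2 monocarboxylate transporters, 4 pyruvate dehydrogenase kinases, 2 subunits of pyruvate dehydrogenase and pyruvate carboxylase.

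Glycolysis breaks glucose down to pyruvate in the cytosol and yields ATP and NADH. Pyruvate is then reduced to lactate by lactate dehydrogenase, oxidised to acetyl-CoA by pyruvate dehydrogenase, which the Pdk kinases switch off, or carboxylated to oxaloacetate. Pluripotent stem cells are known for a high glycolytic rate, many of the genes are known targets of the hypoxia-inducible factor HIF1 and of MYC, and acetyl-CoA is the substrate of the enzymes that acetylate histones.

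RNA had been sequenced from mouse embryonic stem cells (ESCs) of the E14TG2a background in which both copies of Hdac1 and Hdac2, the paired histone deacetylases, are flanked by lox sites. Each of 3 lines also carried a stably integrated transgene that expressed HDAC1-WT, HDAC1-E63R or HDAC1-Y48E, the last 2 being single substitutions on the surface of the enzyme through which it joins its complexes. The drug 4-hydroxytamoxifen (OHT) activates a Cre recombinase that deletes the endogenous genes. The question put to the data was how far each form of HDAC1 keeps expression as it was once the endogenous enzymes are gone. The 6 groups of 3 libraries were HDAC1-WT untreated, HDAC1-WT with OHT, HDAC1-E63R untreated, HDAC1-E63R with OHT, HDAC1-Y48E untreated and HDAC1-Y48E with OHT. The labels give 1 µM OHT and 5 days, while the methods describe a shorter exposure followed by further culture without the drug. Untreated cells carried the transgene as well, on top of the endogenous genes. Each line is a single transfected population, so the mutation and the line cannot be told apart. The study calls the libraries biological replicates, the labels do not say that they came from separate cultures, and p-values measure the spread between these libraries.

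Counts on genes lay between 9019615 and 11454638 per library. Levels are given as CPM, counts scaled to a common library total with TMM factors, in replicate order. SE is the standard error of a log2 fold change. A gene was called when the edgeR quasi-likelihood test gave a Benjamini-Hochberg adjusted p (FDR) under 0.01, and counted as a differentially expressed gene (DEG) when the change was also more than 2-fold. Hdac1 and Hdac2 were examined as a check of the labels. Hdac1 was at 200.7 to 210.4 CPM in untreated HDAC1-WT libraries, 94.9 to 110.2 CPM in HDAC1-E63R and 97.9 to 103.6 CPM in HDAC1-Y48E ones, and at 168.6 to 178.7, 112.5 to 131.2 and 110.1 to 113.1 CPM after OHT. Hdac2 was at 168.7 to 208.4, 152.5 to 209.6 and 149.1 to 153.9 CPM untreated and at 112.4 to 132.6, 149.7 to 158.3 and 139.2 to 151.9 CPM after OHT in the same order. The log2 fold changes of Hdac1 were -0.24, 0.22 and 0.14 in this order of lines, those of Hdac2 -0.66, -0.21 and -0.070, and none of the 6 was called. These totals cover the whole gene, so they do not separate transgene from endogenous reads or show a loss of single exons, and the deletion could not be checked from them. In untreated HDAC1-E63R cells replicate 3 stood apart, with a median absolute log2 difference of 0.445 from its group mates against 0.144 to 0.183 in the other 5 groups. Several results that rest on it are given with and without it. In both mutant lines the median of 943 tested genes of chromosome 6 lay above that of the HDAC1-WT line, by 0.48 (HDAC1-Y48E) and 0.45 (HDAC1-E63R) on the log2 scale in untreated cells, and 7 of the 34 genes lie there (Slc2a3, Hk2, Tpi1, Gapdh, Eno2, Ldhb and Pdk4).

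After OHT, transcripts of the pathway fell in cells rescued with HDAC1-Y48E, fell for fewer genes with HDAC1-E63R, and no member passed the test with HDAC1-WT. In the HDAC1-Y48E line 24 of the 34 members were lower and 0 higher, against 14.7% of all tested genes called lower and 16.2% higher. Of these, 12 were DEGs, all lower, against 5.84% of tested genes that were lower DEGs and 10.8% that were higher ones. HDAC1-E63R cells had 14 members lower and 0 higher, beside 6.82% and 7.49% of all genes, and 2 of them (Ldhb and Aldoc) were DEGs, beside 1.18% lower and 4.74% higher DEGs overall. That count of 14 was 19 without untreated replicate 3, which also left Ldhb as the single DEG, as did leaving out OHT replicate 2, and it was 3 (Gpi1, Aldoc and Ldhb) in a model of that line's 6 libraries alone. In the HDAC1-WT line 0 members were called in either direction by edgeR, and the calls over all genes were 0.0213% lower and 0.0373% higher (DEGs 0.0160% and 0.0373%). There 5 members had an unadjusted p under 0.05, and the share of all genes under that limit was not counted. The median log2 fold change of the 34 stood at -0.056 for the HDAC1-WT line, -0.37 for HDAC1-E63R and -0.66 for HDAC1-Y48E, where the medians over all tested genes were 0, 0.029 and 0.047. All 3 OHT libraries lay below all 3 untreated ones for 12, 22 and 28 members in the same order, a pattern found in 9.64%, 15.7% and 27.5% of tested genes. In RNA from whole cultures, fewer cells that express a gene and less RNA per cell cannot be told apart.

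**Figure D1:**
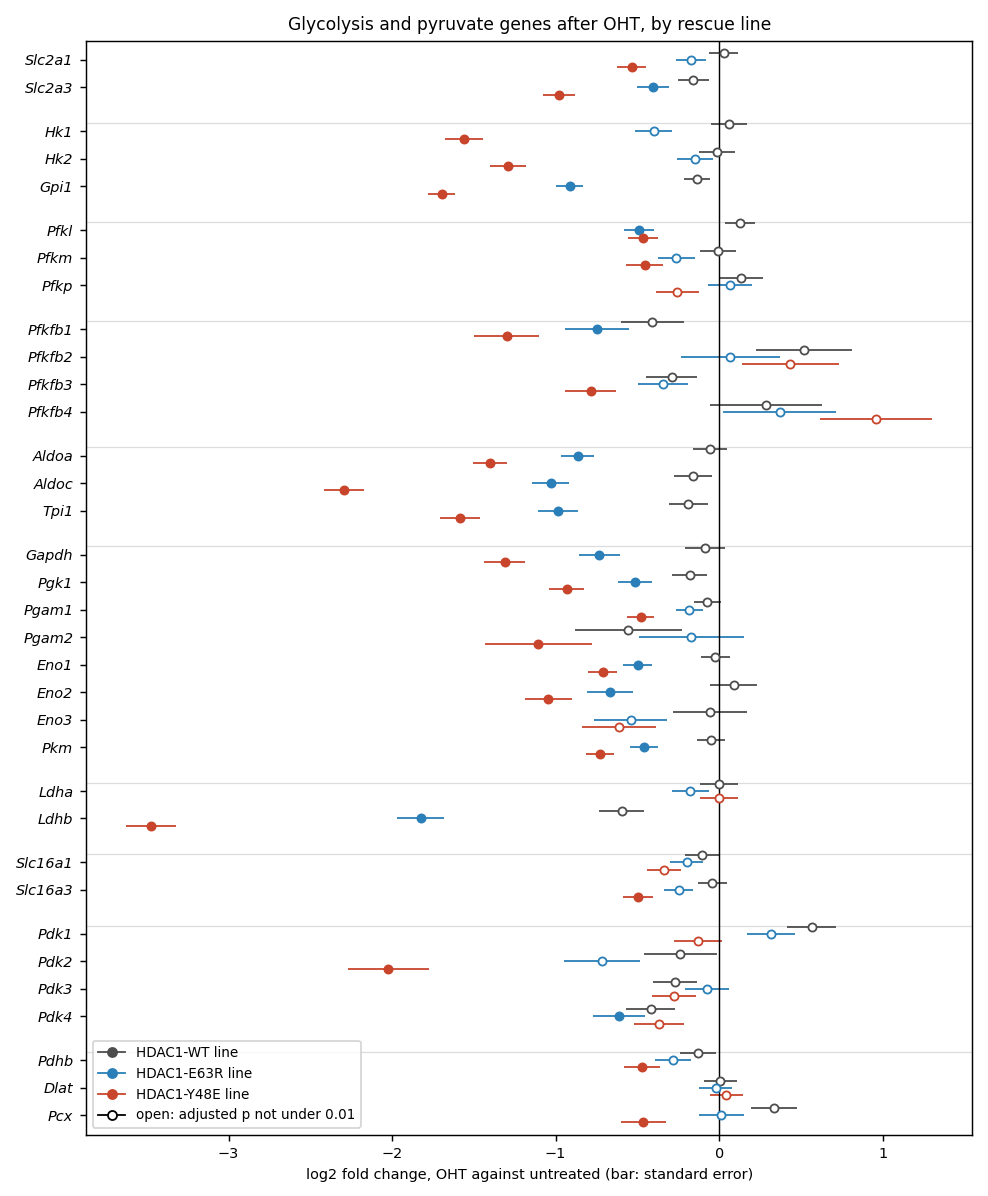
Log2 fold change after OHT (x axis, bars are standard errors) of the 34 genes in the order of the pathway, in the 3 rescue lines (grey HDAC1-WT, blue HDAC1-E63R, red HDAC1-Y48E). Filled points passed an adjusted p of 0.01; 24 red, 14 blue and 0 grey points are filled, and Ldhb lies furthest to the left in both mutant lines.

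The sum of the 34 genes gives the same order. Untreated HDAC1-WT libraries held 20848, 22105 and 20870 CPM in the set and 20036, 20061 and 20577 CPM after OHT. The HDAC1-E63R line held 30099, 29233 and 33837 CPM untreated and 21796, 21921 and 21524 CPM after OHT. The HDAC1-Y48E sums were 27150, 27822 and 26489 CPM untreated and 14143, 14895 and 14033 CPM after OHT. The untreated mutant lines were thus above every HDAC1-WT library, OHT brought the HDAC1-E63R line near the HDAC1-WT level, and the HDAC1-Y48E libraries ended below all others. The sum is carried by abundant transcripts, chiefly Aldoa, Slc2a3, Pkm and Eno1, and has no test.

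**Figure D2:**
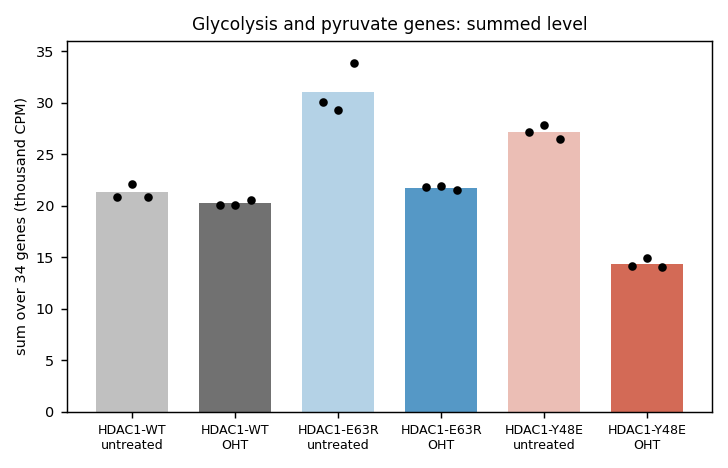
Sum over the 34 genes (y axis, CPM divided by 1000) for the 6 groups; bars are group means and points the 3 libraries. OHT-treated HDAC1-Y48E libraries sit between 14033 and 14895 CPM, below every other library, and untreated HDAC1-E63R and HDAC1-Y48E libraries sit above both HDAC1-WT groups.

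The first steps bring glucose into the cell and phosphorylate it. Slc2a1 and Slc2a3 encode facilitative glucose transporters of the plasma membrane, and Slc2a1 made up between 33.2% and 44.1% of the pair's transcripts per length of exon in the 6 groups. Slc2a3 stood at 4144, 4284 and 4178 CPM in untreated HDAC1-Y48E libraries and 2096, 2258 and 2051 CPM after OHT. The untreated and OHT-treated libraries did not overlap, and the log2 fold change was -0.98 (SE 0.098, edgeR FDR = 5.38e-08). Slc2a1 fell by less in the same line, with a log2 fold change of -0.53 (edgeR FDR = 4.89e-05). In the HDAC1-E63R line Slc2a3 was called at -0.40 (edgeR FDR = 0.00389), or -0.53 without untreated replicate 3, and Slc2a1 was not called. The Slc2a3 call was lost when any other library of that line was left out (adjusted p up to 0.0214).

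Hk1 and Hk2 encode hexokinases, which trap glucose in the cell by phosphorylation. Hk1 stood at 290, 277 and 276 CPM in untreated HDAC1-WT libraries and 309, 281 and 289 CPM after OHT. In HDAC1-E63R cells Hk1 was at 273, 292 and 195 CPM untreated and 188, 186 and 201 CPM with OHT. HDAC1-Y48E libraries held 305, 316 and 311 CPM of Hk1 and then 103, 110 and 103 CPM. All 3 OHT-treated HDAC1-Y48E libraries lay below the other 15, and the log2 fold change was -1.56 (SE 0.11, edgeR FDR = 5.36e-10). In the HDAC1-E63R line the change was -0.40 and was not called (edgeR FDR = 0.0108), its untreated and OHT-treated libraries overlapping through untreated replicate 3.

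Hk2 separated the lines before OHT. Its untreated levels were 321, 304 and 350 CPM with HDAC1-WT, 733, 758 and 561 CPM with HDAC1-E63R and 683, 725 and 685 CPM with HDAC1-Y48E. After OHT they were 303, 301 and 359.8 CPM, 643, 625 and 584 CPM and 267, 306 and 282 CPM in the same order. HDAC1-Y48E cells thus dropped to the level of HDAC1-WT cells or just under it (log2 fold change -1.29, SE 0.11, edgeR FDR = 5.66e-09), while HDAC1-E63R cells stayed above them (log2 fold change after OHT -0.15, edgeR FDR = 0.3504). Untreated HDAC1-E63R replicate 3, at 561 CPM, was the lowest library of that line. Its OHT-treated libraries all lay below the other untreated ones, and no fold change without replicate 3 is given. Gpi1, glucose phosphate isomerase, carries the product on to fructose phosphate. Gpi1 was at 1259, 1290 and 1194 CPM in untreated and 1166, 1168 and 1071 CPM in OHT-treated HDAC1-WT libraries. In HDAC1-E63R cells Gpi1 went from 1912, 1888 and 1874 CPM to 1008, 996 and 1007 CPM, and in HDAC1-Y48E cells from 1704, 1817 and 1650 CPM to 509, 544 and 542 CPM. Groups did not overlap in any line, and the log2 fold changes were -0.91 (SE 0.081, edgeR FDR = 6.24e-08) and -1.70 (SE 0.083, edgeR FDR = 1.51e-12) in the mutant lines, against -0.14 with HDAC1-WT, which was not called.

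The committed step showed smaller changes. Phosphofructokinase is built from the subunits Pfkl, Pfkm and Pfkp, and in HDAC1-Y48E cells Pfkl changed by -0.47 and Pfkm by -0.46 on the log2 scale (edgeR FDR = 3.00e-04 and 0.00253), whereas Pfkp was not called (-0.26). The Pfkm call was lost without untreated replicate 3 or without OHT replicate 2 of that line (adjusted p of 0.0131 and 0.0182). In the HDAC1-E63R line Pfkl alone of the 3 was called, at -0.49 (edgeR FDR = 4.98e-04; -0.41 without untreated replicate 3). The Pfkfb enzymes make and remove an isomer of fructose bisphosphate that activates phosphofructokinase and is not the form that aldolase cuts. Pfkfb3 fell in HDAC1-Y48E cells by 0.79 on the log2 scale (edgeR FDR = 3.49e-04), while Pfkfb2 and Pfkfb4 were not called in any line. Pfkfb4 had the highest log2 fold change of the set in that line, 0.96 (edgeR FDR = 0.0275).

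Pfkfb1 was a DEG in the HDAC1-Y48E line, as were Hk1, Hk2 and Gpi1 among the early steps. HDAC1-Y48E libraries held 23.8, 28.7 and 19.3 CPM untreated and 8.73, 10.7 and 9.63 CPM after OHT, HDAC1-E63R libraries 19.8, 24.4 and 19.8 CPM and 13.3, 12.6 and 12.1 CPM, and HDAC1-WT libraries 19.9, 23.7 and 21.1 CPM and 18.5, 18.96 and 11.4 CPM. In none of the 3 lines did the groups overlap, and the log2 fold changes were -1.30 (SE 0.20, edgeR FDR = 1.62e-05), -0.75 (adjusted p = 0.00705) and -0.41 (adjusted p = 0.485). The HDAC1-E63R call was lost when any library of that line other than untreated replicate 3 was left out (adjusted p up to 0.0313).

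Aldolase cuts fructose bisphosphate into triose phosphates. Aldoa, the form of most tissues, accounted for between 97.1% and 98.5% of aldolase transcripts per length in the 6 groups, and Aldoc, the brain form, for the rest. Aldoa stood at 3896, 4194 and 3905 CPM in untreated HDAC1-WT libraries and at 3863, 3830 and 3841 CPM after OHT. In HDAC1-E63R cells Aldoa went from 4491, 4304 and 6046 CPM to 2682, 2731 and 2731 CPM. HDAC1-Y48E cells had 4439, 4360 and 4086 CPM and then 1573, 1698 and 1609 CPM of Aldoa. The HDAC1-Y48E libraries with OHT were the lowest of all, with a log2 fold change of -1.40 (SE 0.10, edgeR FDR = 6.54e-10), and the HDAC1-E63R change was -0.87 (edgeR FDR = 2.89e-06; -0.70 without untreated replicate 3).

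Aldoc changed more steeply. Its levels were 62.8, 73.6 and 64.4 CPM in untreated and 61.3, 56.4 and 62.1 CPM in OHT-treated HDAC1-WT libraries. In HDAC1-E63R cells Aldoc was at 132, 121 and 137 CPM and then 68.4, 60.7 and 61.2 CPM, and in HDAC1-Y48E cells at 109, 109 and 101 CPM and then 18.4, 20.8 and 25.5 CPM. Both mutant lines started above HDAC1-WT, the HDAC1-E63R line came down to its range, and the HDAC1-Y48E line went below it. The log2 fold changes were -2.30 (SE 0.12, edgeR FDR = 4.25e-12) with HDAC1-Y48E and -1.03 (SE 0.12, edgeR FDR = 1.29e-06) with HDAC1-E63R, and the second was -0.99 without untreated replicate 3, so that Aldoc was then no DEG in that line. Tpi1, the isomerase of the triose phosphates, stood at 1165, 1168 and 1118 CPM in untreated and 393, 385 and 373 CPM in OHT-treated HDAC1-Y48E libraries. In HDAC1-E63R cells Tpi1 went from 1433, 1401 and 2173 CPM to 809, 858 and 862 CPM, and in HDAC1-WT cells from 754, 767 and 737 CPM to 663, 623 and 695 CPM. Untreated HDAC1-E63R replicate 3 was far above its group mates for Tpi1, and without it the log2 fold change in that line moved from -0.99 to -0.75. The HDAC1-Y48E change was -1.59 (SE 0.12, edgeR FDR = 1.22e-09).

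The steps from glyceraldehyde phosphate to pyruvate yield the ATP of the pathway, and their genes fell by unequal amounts. Gapdh, which oxidises glyceraldehyde phosphate, was at 529, 536 and 533 CPM in untreated and 210.4, 246 and 187 CPM in OHT-treated HDAC1-Y48E libraries. The HDAC1-E63R libraries held 528, 465 and 615 CPM and 302, 301 and 363 CPM of it, and the HDAC1-WT libraries 334, 354 and 274 CPM and 309, 322 and 275 CPM. The log2 fold changes were -1.31 (SE 0.13, edgeR FDR = 2.92e-08), -0.73 (edgeR FDR = 1.72e-04) and -0.087 in that order, and only the HDAC1-WT groups overlapped. In the reads assigned to it, Gapdh, often used as a reference transcript, was thus no constant in the mutant lines. Gapdh has many near-identical copies, and reads with more than 1 alignment name no gene. Such reads were 6.91% to 7.38% of counted reads in untreated and 7.73% to 7.86% in OHT-treated HDAC1-Y48E libraries. They were 6.29% to 7.70% and 6.91% to 7.07% with HDAC1-E63R, and 6.55% to 6.70% over both HDAC1-WT groups. The part of Gapdh in them was not tested. Pgk1, the first of the ATP-making enzymes, changed by -0.93 and -0.52 with HDAC1-Y48E and HDAC1-E63R (edgeR FDR = 3.12e-07 and 9.68e-04). Without untreated HDAC1-E63R replicate 3 the values in that line were -0.335 for Pgk1 and -0.63 for Gapdh. Pgam1, a phosphoglycerate mutase, was called with HDAC1-Y48E only at -0.48 (edgeR FDR = 7.76e-05), against -0.18 with HDAC1-E63R, and the difference between those lines was not called (edgeR FDR = 0.1598).

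Enolase makes phosphoenolpyruvate. Eno1, the common form, made up 95.1% to 96.9% of enolase transcripts per length. It changed by -0.71 and -0.50 (edgeR FDR = 9.18e-07 and 2.30e-04) with HDAC1-Y48E and HDAC1-E63R, the second being -0.42 without untreated replicate 3. Eno2, the neuronal form, was at 50.2, 50.7 and 56.8 CPM in untreated and 23.5, 25.8 and 27.1 CPM in OHT-treated HDAC1-Y48E libraries. In HDAC1-E63R cells Eno2 went from 48.3, 45.5 and 38.7 CPM to 31.9, 22.6 and 28.8 CPM, and HDAC1-WT cells held 26.2, 27.3 and 22.3 CPM and 27.7, 28.03 and 24.9 CPM. After OHT all 3 lines lay in much the same range, so the log2 fold changes of -1.05 (SE 0.14, edgeR FDR = 3.71e-06) and -0.67 (edgeR FDR = 0.00135; 0.0155 without OHT replicate 2) start from higher untreated levels. Pgam2, the muscle mutase, had low levels of 7.59, 10.02 and 6.79 CPM and 5.02, 4.17 and 2.16 CPM in HDAC1-Y48E cells. The other lines held 4.19, 7.07 and 6.1 CPM and 5.104, 3.81 and 2.91 CPM (HDAC1-WT) and 6.1, 7.23 and 7.55 CPM and 7.95, 5.43 and 5.09 CPM (HDAC1-E63R). Its log2 fold change of -1.11 (SE 0.33, edgeR FDR = 0.00942) lost the call when any HDAC1-Y48E library other than OHT replicate 1 was left out (adjusted p up to 0.0617). Eno3, the muscle enolase, was not called in any line.

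Pkm, pyruvate kinase, makes pyruvate and ATP in the last step. It was at 2314, 2522 and 2289 CPM in untreated and 2257, 2244 and 2376 CPM in OHT-treated HDAC1-WT libraries. In HDAC1-E63R cells Pkm went from 3515, 3295 and 3916 CPM to 2580, 2649 and 2576 CPM. HDAC1-Y48E libraries held 2859, 2962 and 2792 CPM and then 1697, 1806 and 1694 CPM of Pkm. The mutant groups did not overlap with their own controls, and the HDAC1-WT groups did. The log2 fold changes were -0.73 (SE 0.085, edgeR FDR = 4.95e-07) with HDAC1-Y48E and -0.46 (edgeR FDR = 4.18e-04; -0.39 without untreated replicate 3) with HDAC1-E63R. The counts are per gene, so the splice forms of Pkm were not told apart.

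**Figure D3:**
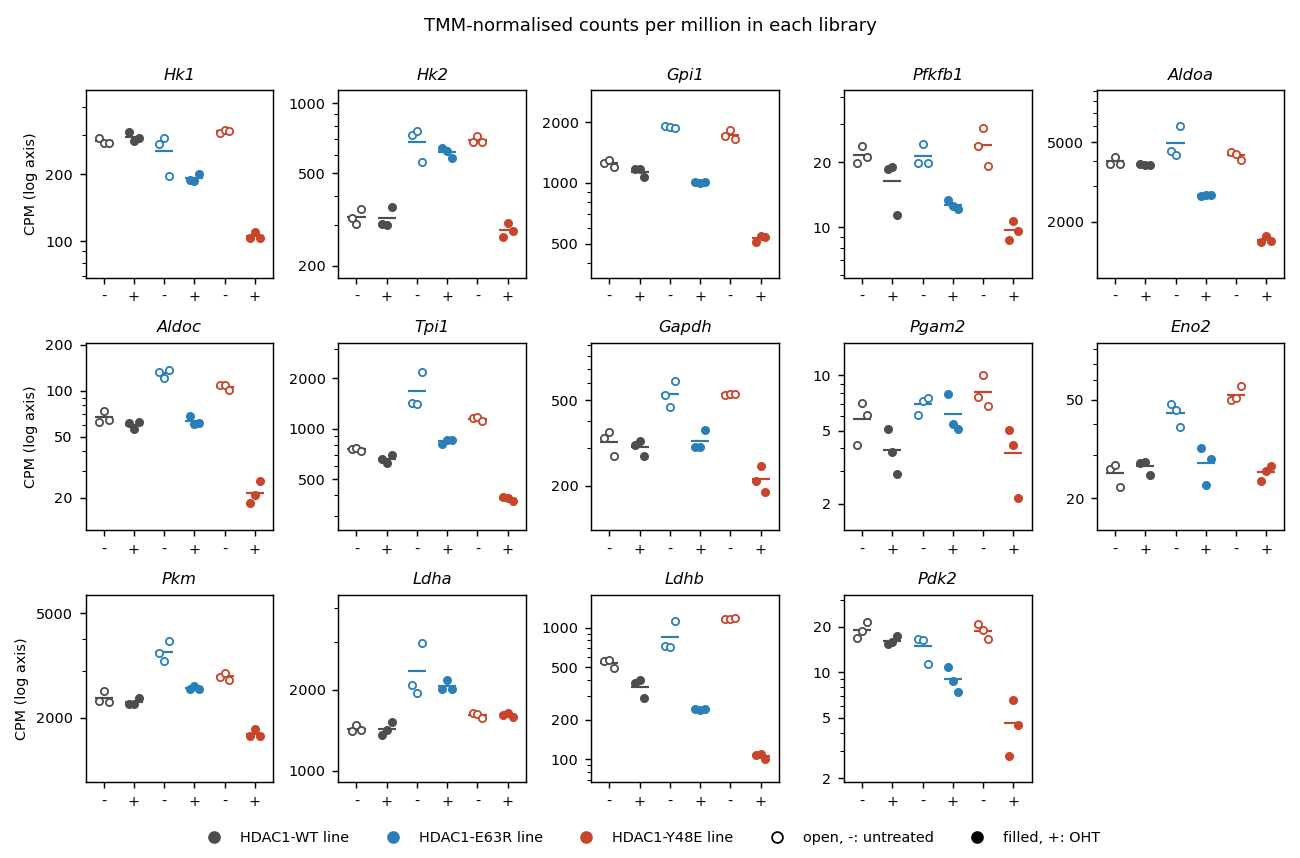
CPM in each library (log axis, one panel per gene) for the 12 genes that were DEGs in the HDAC1-Y48E line and for Pkm and Ldha; open points are untreated, filled points OHT-treated, lines group means. Filled red points lie below open red points in every panel but Ldha. Gpi1, Pfkfb1, Aldoa, Aldoc, Tpi1 and Ldhb have filled points below open points in all 3 lines.

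The widest change of the set was in lactate dehydrogenase, and in only one of its subunits. Ldha encodes the muscle subunit, which favours the reduction of pyruvate to lactate, and Ldhb the heart subunit, which favours the reverse. Ldhb lies on chromosome 6 (mm10, 142490249 to 142507957, minus strand). It stood at 556, 563 and 496 CPM in untreated HDAC1-WT libraries and at 379, 399 and 291 CPM after OHT. In HDAC1-E63R cells Ldhb went from 724, 716 and 1118 CPM to 242, 238 and 241 CPM. HDAC1-Y48E libraries had 1169, 1168 and 1177 CPM untreated and 107, 109 and 99.95 CPM after OHT. The order of the lines was reversed by OHT: HDAC1-Y48E held the most Ldhb before it and the least after it, and in all 3 lines the OHT libraries lay below the untreated ones. The log2 fold change was -3.47 (11.1-fold, SE 0.15, edgeR FDR = 2.35e-13) with HDAC1-Y48E and -1.83 (SE 0.14, edgeR FDR = 8.80e-09) with HDAC1-E63R, or -1.58 without untreated replicate 3. With HDAC1-WT it was -0.60 (SE 0.14) and did not pass (edgeR FDR = 0.0685).

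Ldha gave another picture. It was at 1404, 1475 and 1418 CPM in untreated and 1358, 1414 and 1519 CPM in OHT-treated HDAC1-WT libraries. In HDAC1-Y48E cells Ldha was at 1637, 1630 and 1568 CPM and then 1612, 1631 and 1583 CPM, and in HDAC1-E63R cells at 2073, 1947 and 2985 CPM and then 2013, 2173 and 2015 CPM. Untreated and OHT-treated libraries overlapped in every line, and the log2 fold changes were -0.0021, -0.0022 and -0.18 (SE 0.12, 0.12 and 0.12), none of them called. The last value includes untreated HDAC1-E63R replicate 3, whose 2985 CPM was the highest Ldha level of all libraries. From counts per length of exon, Ldhb made up 60.5% ± 0.664 (SD, n = 3) of lactate dehydrogenase transcripts in untreated HDAC1-Y48E cells and 12.1% ± 0.331 (SD, n = 3) after OHT. The share went from 43.4% ± 0.883 to 19.7% ± 0.826 (SD, n = 3) with HDAC1-E63R and from 44.2% ± 1.57 to 34.4% ± 4.86 (SD, n = 3) with HDAC1-WT. OHT-treated libraries lay below untreated ones in each line, and the fall was widest with HDAC1-Y48E.

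**Figure D4:**
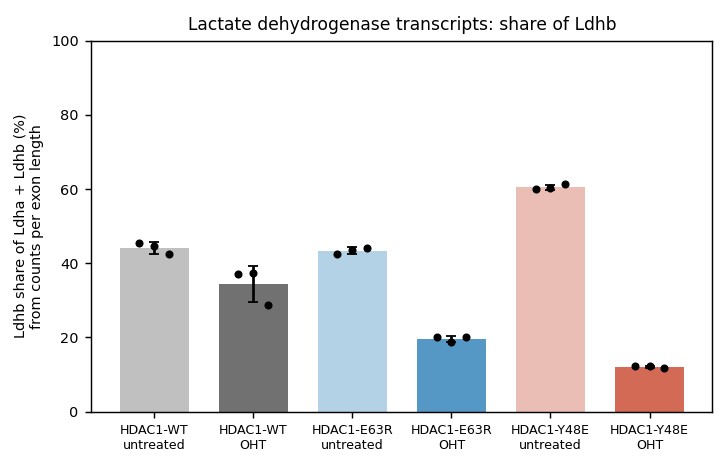
Ldhb as a percentage of Ldha plus Ldhb, from counts per exon length (y axis), in the 6 groups; bars are means with SD and points the 3 libraries. The share is highest in untreated HDAC1-Y48E cells at 60.5% and lowest in the same line after OHT at 12.1%.

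The 250 bases before the start of 4 members show how differently the genes of one pathway begin: the lactate dehydrogenase pair that changed unequally, and Aldoc and Gpi1, which fell in both mutant lines. They come from RefSeq starts on GRCm38.p6 (mm10) and are written in the sense of the gene. Capitals mark the core ACGTG or GCGTG, the letters that HIF1 is known to read, on either strand. CACGTG, a form that MYC and its partners are known to read, holds the core on both strands and so counts as 2 matches.
Ldhb (chr6:142507958-142508207, minus strand): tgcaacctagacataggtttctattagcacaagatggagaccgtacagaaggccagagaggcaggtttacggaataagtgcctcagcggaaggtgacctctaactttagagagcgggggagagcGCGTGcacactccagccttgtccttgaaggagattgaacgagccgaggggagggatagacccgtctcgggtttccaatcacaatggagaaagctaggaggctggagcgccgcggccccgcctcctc
Ldha (chr7:46845554-46845803, plus strand): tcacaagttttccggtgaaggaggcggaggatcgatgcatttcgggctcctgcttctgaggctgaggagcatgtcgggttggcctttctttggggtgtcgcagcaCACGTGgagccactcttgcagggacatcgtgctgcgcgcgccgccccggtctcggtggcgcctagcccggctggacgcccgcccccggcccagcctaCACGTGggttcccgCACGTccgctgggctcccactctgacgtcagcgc
Aldoc (chr11:78322823-78323072, plus strand): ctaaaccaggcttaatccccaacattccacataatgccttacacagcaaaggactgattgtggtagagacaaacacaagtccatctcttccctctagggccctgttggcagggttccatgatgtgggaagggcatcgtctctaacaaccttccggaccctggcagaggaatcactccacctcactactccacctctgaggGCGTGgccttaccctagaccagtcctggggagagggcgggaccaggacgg
Gpi1 (chr7:34230337-34230586, minus strand): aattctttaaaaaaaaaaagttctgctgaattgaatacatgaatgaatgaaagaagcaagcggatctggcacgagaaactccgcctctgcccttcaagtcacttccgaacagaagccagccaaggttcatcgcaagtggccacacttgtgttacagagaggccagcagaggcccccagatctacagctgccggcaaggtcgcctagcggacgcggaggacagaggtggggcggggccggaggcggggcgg
Ldhb and Aldoc each hold 1 core, at -126 and -50 bases from the start, and Gpi1 holds 0. Ldha, which was not called after OHT in any line, holds 5, the first 4 of them in its CACGTG motifs. Other members differ: Hk2 and Gapdh, DEGs with HDAC1-Y48E, hold 2 each and Pgam1, called lower there, 3. Dlat, not called after OHT, holds 0. The number of cores was not compared with the OHT response over the set. In windows that run from 250 bases before to 50 after the start, ACGTG or GCGTG occurred in 38 of the 53 windows of the members (71.7%) and in 43.8% of the 32851 windows of all genes, and CACGTG in 13.2% and 7.15%. The members' windows also had more G and C (median 60.3% against 52.7%). 33 members had a window, 28 had a core in at least 1 of theirs, and no sequence is given for Slc2a3. A match of letters is a description and not a binding site.

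Among the genes for lactate transport and the fate of pyruvate, 4 fell with HDAC1-Y48E (Slc16a3, Pdk2, Pdhb and Pcx) and Pdk2 was the DEG. Slc16a1 and Slc16a3 encode monocarboxylate transporters that move lactate and pyruvate with a proton. Slc16a3 was called in HDAC1-Y48E cells at -0.50 (edgeR FDR = 1.25e-04), and Slc16a1 missed the threshold at -0.34 (edgeR FDR = 0.0117). Of the 4 kinases that switch off pyruvate dehydrogenase, Pdk2 was at 21.01, 19.02 and 16.6 CPM in untreated and 2.81, 6.53 and 4.498 CPM in OHT-treated HDAC1-Y48E libraries. The HDAC1-E63R libraries had 16.7, 16.4 and 11.4 CPM and 10.8, 8.77 and 7.44 CPM of it, and the HDAC1-WT libraries 16.9, 18.9 and 21.6 CPM and 15.4, 15.9 and 17.3 CPM. All 3 HDAC1-Y48E libraries with OHT were below every other library, with a log2 fold change of -2.02 (SE 0.25, edgeR FDR = 8.31e-07), and the change with HDAC1-E63R was -0.72 and not called (edgeR FDR = 0.0265).

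Pdk1 and Pdk3 were not called after OHT in any line, and Pdk4 was called with HDAC1-E63R at -0.61 (edgeR FDR = 0.00637), a call lost when any library of that line other than untreated replicate 3 was left out (adjusted p up to 0.0329). Per length, Pdk2 made up 9.56% ± 1.34 of the 4 kinases' transcripts in untreated HDAC1-Y48E cells and 2.93% ± 1.09 after OHT (SD, n = 3), while Pdk3 held 45.6% ± 2.7 and 47.6% ± 1.8 (SD, n = 3). Pdhb and Dlat encode subunits of pyruvate dehydrogenase itself. Pdhb changed by -0.47 in HDAC1-Y48E cells (edgeR FDR = 0.00149), and Dlat had values of 0.0070 (HDAC1-WT), -0.023 (HDAC1-E63R) and 0.044 (HDAC1-Y48E) on that scale, none called. Pcx, pyruvate carboxylase, feeds pyruvate to oxaloacetate and was at 78.2, 102 and 87.8 CPM in untreated and 64.04, 62.02 and 68.2 CPM in OHT-treated HDAC1-Y48E libraries. Its fall of 0.46 on the log2 scale (edgeR FDR = 0.00901) was lost when any library of that line other than untreated replicate 1 was left out (adjusted p up to 0.0668).

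Whether a line answered OHT differently from another was tested directly. The HDAC1-Y48E response was more negative than the HDAC1-WT response in 17 members and more positive in 0, beside 6.77% and 5.84% of all tested genes. Of the 17, 10 differed more than 2-fold, and the share of all genes with such a difference was not counted. The widest differences were in Ldhb (-2.88, SE 0.20, edgeR FDR = 9.35e-10), Aldoc (-2.14, edgeR FDR = 6.06e-09), Pdk2 (-1.78, edgeR FDR = 4.25e-04) and Hk1 (-1.62, edgeR FDR = 1.58e-07). For Ldha the difference rounded to 0, with a standard error of 0.16. HDAC1-E63R against HDAC1-WT gave 6 members (Gpi1, Pfkl, Aldoa, Aldoc, Tpi1 and Ldhb) with a more negative response and 0 with a more positive one, beside 1.01% and 1.44% of all genes. Without untreated HDAC1-E63R replicate 3 there were 12, and Ldhb moved from -1.23 to -0.99. The mutant lines differed from each other in 5 members, Hk1, Hk2, Gpi1, Aldoc and Ldhb, all lower with HDAC1-Y48E, where 1.53% of all genes were lower and 0.415% higher, and in 13 members without that library. Among these 5, Hk1 (-1.16, SE 0.16, edgeR FDR = 8.95e-05) and Hk2 (-1.14, SE 0.16, edgeR FDR = 8.25e-05) encode the first enzyme of the pathway. Without untreated HDAC1-E63R replicate 3 their differences were -1.004 and -1.02. Of the calls between lines, Pfkl and Tpi1 in HDAC1-E63R against HDAC1-WT were each lost without any HDAC1-WT or any OHT-treated library (adjusted p up to 0.0214 and 0.0228), Pcx in HDAC1-Y48E against HDAC1-WT without any of 7 of the 12 libraries, in all 4 groups (up to 0.0215), Slc2a1 there without untreated HDAC1-Y48E replicate 2 (0.0109) and Aldoc in HDAC1-E63R against HDAC1-WT without untreated HDAC1-WT replicate 1.

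Many of the genes already differed between the lines before OHT, when endogenous Hdac1 and Hdac2 were still present. Untreated HDAC1-Y48E cells had 12 members higher and 0 lower than untreated HDAC1-WT cells, beside 6.42% and 5.74% of all genes. Untreated HDAC1-E63R cells had 18 higher and 1 lower (Pdk4), beside 9.04% and 7.83%. The members higher in both were Slc2a1, Slc2a3, Hk2, Gpi1, Aldoc, Tpi1, Gapdh, Eno2, Ldhb, Slc16a3, Pdk1 and Pcx, and the 2 comparisons share their HDAC1-WT libraries. Pcx was at 29.6, 34.7 and 36 CPM in untreated HDAC1-WT libraries, 73.2, 58.3 and 49.1 CPM in HDAC1-E63R and 78.2, 102 and 87.8 CPM in HDAC1-Y48E ones. Neither mutant group overlapped with HDAC1-WT for Pcx. The log2 differences from HDAC1-WT were 1.42 with HDAC1-Y48E (edgeR FDR = 2.19e-07) and 0.85 with HDAC1-E63R (edgeR FDR = 9.65e-05). Hk2 was higher by 1.10 with HDAC1-Y48E and by 1.07 with HDAC1-E63R. Ldhb was higher by 1.12 and 0.66 in that order (0.42 for HDAC1-E63R without replicate 3). Ldha was higher with HDAC1-E63R only, by 0.70 (edgeR FDR = 8.50e-05; 0.49 without replicate 3).

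Between the untreated mutant lines 2 members were lower with HDAC1-Y48E (Ldha at -0.54 and Pfkl at -0.56) and 0 higher, beside 1.00% and 0.846% of all genes. Ldha lost this call without any of the untreated HDAC1-Y48E libraries in turn (adjusted p up to 0.0426). Without untreated HDAC1-E63R replicate 3 the counts were 6 lower and 1 higher, and against HDAC1-WT that line then had 20 members higher and 0 lower. A model of only the untreated HDAC1-E63R and HDAC1-WT libraries called 5 members higher (Slc2a1, Hk2, Aldoc, Tpi1 and Pdk1) and 0 lower. In untreated HDAC1-Y48E against HDAC1-WT cells, Pdk1 lost its call without any library but HDAC1-WT replicate 3 (adjusted p up to 0.0244), Slc16a3 without HDAC1-WT replicate 1 or 3 or HDAC1-Y48E replicate 1 or 2 (up to 0.0459) and Slc2a1 without HDAC1-WT replicate 1 or HDAC1-Y48E replicate 2 (up to 0.0136). With HDAC1-E63R, Eno1, Pgam1 and Slc16a3 lost theirs without HDAC1-WT replicate 1 or 3 (up to 0.0321, 0.0159 and 0.0151), Pgk1 without any HDAC1-WT library (up to 0.0157) and Pdk4 without any library but HDAC1-E63R replicate 2 (up to 0.0429).

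**Figure D5:**
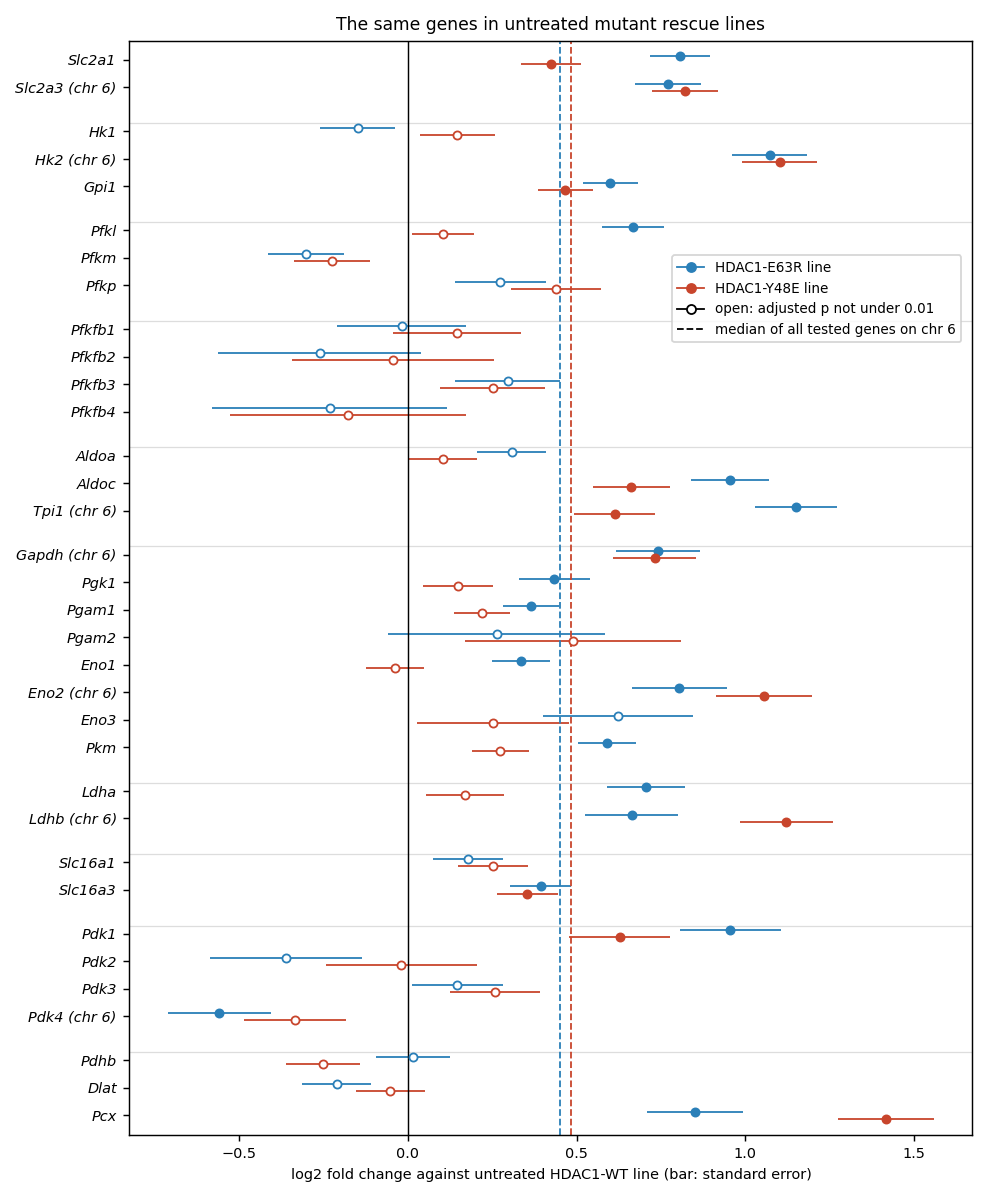
Log2 fold change of each gene in untreated HDAC1-E63R (blue) and HDAC1-Y48E (red) cells against untreated HDAC1-WT cells (x axis, bars are standard errors; filled points passed an adjusted p of 0.01). Dashed lines are the medians of all 943 tested genes of chromosome 6, 0.45 and 0.48, and 6 of the 7 members on that chromosome lie above both.

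Chromosome 6 bears on these comparisons. Of its 7 members, 6 were higher in each untreated mutant line, and Pdk4 was not. Over all tested genes 6.42% were higher with HDAC1-Y48E and 9.04% with HDAC1-E63R. The share called among all genes of chromosome 6 was not counted, so the members there cannot be set against their own chromosome. Of the 27 members elsewhere, 6 were higher with HDAC1-Y48E and 12 with HDAC1-E63R, with medians of 0.22 and 0.31. The part of the chromosome-wide shift in the values of single members was not tested. Within lines the chromosome's median after OHT was -0.064, 0.089 and 0.086 in the HDAC1-WT, HDAC1-E63R and HDAC1-Y48E lines. After OHT, 18 of the 27 members on other chromosomes were lower with HDAC1-Y48E (median -0.50) and 8 with HDAC1-E63R (median -0.26). On chromosome 6 it was 6 of 7 in each line, and over all tested genes 14.7% and 6.82%.

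The OHT response and the untreated difference use the same untreated libraries, so the OHT-treated cells of each line were also set side by side, a comparison added after the data were seen. OHT-treated HDAC1-Y48E cells had 15 members lower and 1 higher (Pcx) than OHT-treated HDAC1-WT cells, beside 15.2% and 16.6% of all genes. The lowest were Pdk2 (-1.80, edgeR FDR = 3.10e-06), Ldhb (-1.76, edgeR FDR = 1.43e-09), Hk1 (-1.48, edgeR FDR = 7.45e-10) and Aldoc (-1.47, edgeR FDR = 1.97e-09). Some members that fell after OHT in that line were not called here. Among these were Slc2a1, Slc2a3, Hk2 and Eno2, with log2 differences of -0.14, 0.0027, -0.17 and -0.079. The last 3 lie on chromosome 6, where the median of all tested genes was 0.60 above HDAC1-WT in these treated cells and 0.61 above it with HDAC1-E63R. The part of that shift in these values was not tested. OHT-treated HDAC1-E63R cells had 6 members higher (Slc2a1, Slc2a3, Hk2, Ldha, Pdk1 and Pcx) and 6 lower (Hk1, Pfkm, Aldoa, Ldhb, Pdk2 and Pdk4), beside 10.5% and 8.79% of all genes. The log2 differences were 0.61 for Slc2a1, 0.94 for Hk2, -0.61 for Hk1 and -0.50 for Aldoa. With HDAC1-Y48E, Gapdh and Pfkfb1 lost their calls without HDAC1-WT replicate 1 or 2 or HDAC1-Y48E replicate 1 or 3 (adjusted p up to 0.0252 and 0.0292) and Pcx without HDAC1-WT replicate 2 (0.0113). With HDAC1-E63R, Ldhb and Pcx lost theirs without any library but HDAC1-WT replicate 3 (up to 0.0252 and 0.0477) and Pdk2 without any but HDAC1-E63R replicate 1 (up to 0.0508).

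Reads of several members can fall on near-identical copies or on overlapping genes. Gapdh had 91 such copies, which held 26.9% to 38.1% of the counts assigned to the family. With the copies added its log2 fold change in HDAC1-Y48E cells was -1.30. Reads with more than 1 alignment form an entry that names no gene. Any of them left out of Gapdh or Eno1 are not in these shares, and adding the copies does not restore them. Eno1 had 4 copies with 28.7% to 32.8%, mostly Eno1b. For Ldha, Gpi1, Pdhb, Pgam1, Pgk1, Pkm and Tpi1 the copies held at most 2.34%, and the single copy of Ldhb held at most 0.0908%. Exons of Pfkfb2, Gpi1 and Pfkm are shared with another gene over 17.4%, 11.5% and 10.2% of their length, and it is not stated whether the counting used the strand.

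Genes beside the set were read from lists chosen with earlier results known. Of 36 tested further genes of glycolysis and pyruvate metabolism, 7 fell and 3 rose in HDAC1-Y48E cells, 5 fell in HDAC1-E63R cells and 0 were called with HDAC1-WT. These are 19.4% lower and 8.33% higher with HDAC1-Y48E, near the 14.7% lower and below the 16.2% higher of all tested genes, and 13.9% lower with HDAC1-E63R beside 6.82%. Among them Pck2, mitochondrial phosphoenolpyruvate carboxykinase (-1.62), Mpc1, a subunit of the mitochondrial pyruvate carrier (-1.33), Slc2a4, the insulin-regulated glucose transporter (-1.26), and Bsg, the chaperone of monocarboxylate transporters (-1.05), were lower DEGs with HDAC1-Y48E. Pdha2, the testis form of a pyruvate dehydrogenase subunit, was at 1.54, 0.911 and 1.62 CPM untreated and 7.73, 11.8 and 15.1 CPM after OHT in that line (3.08, edgeR FDR = 1.09e-04). In the pentose phosphate pathway 2 of 10 genes fell and 2 rose with HDAC1-Y48E, which is 20% each way beside 14.7% and 16.2% of all tested genes. Tkt, transketolase, fell by 1.02 on the log2 scale, while its relatives Tktl1 and Tktl2 rose by 4.36 and 3.52 (edgeR FDR = 8.28e-05 and 1.56e-04). Tktl1 was at 1.76, 0.228 and 0 CPM in untreated and 13.8, 15.1 and 12.7 CPM in OHT-treated HDAC1-Y48E libraries, and it rose by 3.84 with HDAC1-E63R.

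Known HIF target genes outside glycolysis moved in the same comparisons. Of 20, 11 were lower and 1 higher (Ak4) with HDAC1-Y48E, 6 lower and 1 higher (Ak4) with HDAC1-E63R, and 0 were called with HDAC1-WT. Those are 55% lower and 5% higher with HDAC1-Y48E, where all tested genes had 14.7% and 16.2%, and 30% and 5% with HDAC1-E63R, where they had 6.82% and 7.49%. The direct test between HDAC1-Y48E and HDAC1-WT called 8 lower and 1 higher, beside 6.77% and 5.84% of all tested genes. In untreated cells 7 of the 20 were higher and 3 lower (Egln3, Mxi1 and Ak4) with HDAC1-Y48E than with HDAC1-WT, beside 6.42% and 5.74% of all genes, and 10 were higher and 2 lower (Mxi1 and Ak4) with HDAC1-E63R, beside 9.04% and 7.83%. Vegfa, the vascular growth factor, was at 216, 231 and 237 CPM in untreated and 62.5, 61.8 and 72.6 CPM in OHT-treated HDAC1-Y48E libraries (-1.80, SE 0.095, edgeR FDR = 3.63e-12). Ndrg1 (-1.57), Bnip3 (-1.56), a mitophagy receptor, and Egln3 (-1.13) and Egln1 (-1.004), the oxygen-sensing hydroxylases, were further lower DEGs, with Higd1a (-1.06) and Ankrd37 (-1.02). Among 14 tested regulators of the pathway, 5 fell (Arnt, Vhl, Mycn, Txnip and Trp53) and 1 rose (Myc) with HDAC1-Y48E, which is 35.7% and 7.14% beside 14.7% and 16.2% of all tested genes, and Hif1a was not called. Arnt, the partner of HIF1, changed by -1.01 (edgeR FDR = 3.01e-06), and Myc was at 0.3299, 0.797 and 2.48 CPM untreated and 4.72, 6.71 and 5.04 CPM after OHT (2.17, edgeR FDR = 0.00635).

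The cells were checked against markers of their type. All 10 pluripotency markers were tested, and their summed level was 8232 to 8395 CPM in untreated HDAC1-WT cells and 8653 to 9561 CPM after OHT. It was 6384 to 6516 CPM in untreated and 3120 to 3319 CPM in OHT-treated HDAC1-Y48E cells, and 5806 to 9366 CPM and then 5105 to 5435 CPM with HDAC1-E63R. The 9366 CPM came from untreated replicate 3, where Dppa5a was at 3721 CPM against 1684 and 1623 CPM in its group mates. Without that library the HDAC1-E63R fall in the sum is smaller. In HDAC1-Y48E cells 8 of the 10 fell, among them Pou5f1 (-1.52), Nanog (-1.29) and Esrrb (-1.64), and 1 rose (Fbxo15), which is 80% and 10% beside 14.7% and 16.2% of all tested genes. With HDAC1-E63R 4 fell and 1 rose (Klf4), beside 6.82% and 7.49% of all tested genes. Markers of other cell types were far lower. Among 7 trophoblast markers, Gata3, Eomes and Hand1 rose in both mutant lines and Tfap2c in the HDAC1-E63R line, where Ascl2 fell. For this list and those below, 16.2% of all tested genes were called higher with HDAC1-Y48E. With HDAC1-E63R 7.49% were called higher and 6.82% lower. Cdx2 and Elf5 were low, with group means of at most 1.595 and 1.015 CPM, and neither was called after OHT in any line. Cdx2 was at 1.32, 1.81 and 0.587 CPM in OHT-treated HDAC1-E63R libraries and at 0 in the 3 OHT-treated HDAC1-WT ones (edgeR FDR = 0.00888), and at 1.48, 0.904 and 2.402 CPM in untreated HDAC1-E63R libraries. The sum of the trophoblast markers was 202 to 217 CPM untreated and 216 to 248 CPM after OHT with HDAC1-WT, 82.4 to 90.4 and 155 to 165 CPM with HDAC1-E63R, and 79.6 to 93.5 and 101 to 106 CPM with HDAC1-Y48E. Tfap2c was the largest part, with group means of 178.1 and 190 CPM, 55.6 and 102.1 CPM, and 59.5 and 54.15 CPM in the same order. Of 7 primitive endoderm markers Dab2 alone was called after OHT, higher in both mutant lines, which with HDAC1-Y48E is near the share over all genes. Foxa2 had group means of at most 0.309 CPM and was not tested. Their sum was 41.1 to 43.6 CPM and then 36 to 42.2 CPM with HDAC1-WT, 12.5 to 20.8 and 22.3 to 27.2 CPM with HDAC1-E63R, and 18 to 25.7 and 46.3 to 51.9 CPM with HDAC1-Y48E. Of 7 fibroblast markers Col1a1 and Thy1 rose in both, and Dcn, Lum and Postn had group means of at most 0.114, 0.196 and 0.534 CPM. Their sum was 23.4 to 25.2 CPM and then 35.9 to 41.9 CPM with HDAC1-WT, 12.9 to 18.9 and 48.6 to 56.5 CPM with HDAC1-E63R, and 23 to 27.2 and 81.7 to 94.3 CPM with HDAC1-Y48E. These lists moved in the same libraries as the glycolysis genes, and their part in the results above was not tested.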

How the data were processed

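Total RNA had been sequenced from 18 libraries, 3 in each of 6 groups. The authors aligned the reads to mm10 with HISAT2 2.1.0 and counted them per gene with HTSeq, and deposited raw read counts per gene for each library, neither normalised nor pooled. The gene annotation and the strand setting used for counting are not given in the sources used here, so reads of overlapping genes on opposite strands may not be told apart, and reads that match several copies of a gene may be left out or shared. Each library had 9019615 to 11454638 counts on genes, so that 3 counts, taken as the limit of detection, correspond to 0.248 to 0.343 CPM, which covers counting error only. Entries that name no gene, such as reads that were ambiguous or on no feature, held 59.4% to 61.2% of all counted reads and were left out.

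From the counts, genes were filtered by group with edgeR 4.0.16 (R 4.3.3), scaled by TMM, and fitted in 1 quasi-likelihood model of all 18 libraries with no covariate. P-values were adjusted over all 18791 tested genes. Standard errors were taken from the fold change and its F statistic. Levels per length used the union of exons in GENCODE M21. The scripts were tested on simulated counts. Libraries were grouped by their labels. The members and lists were chosen with earlier results of these data known. Values in every library are given for members that were DEGs in an OHT comparison and for Ldha, Gapdh and Pkm. Values of Slc2a3 and Pcx, of genes not called, and of Ak4, Mxi1, Cdx2, Klf4, Fbxo15, Tfap2c and the regulators other than Arnt and Myc were named after they were seen. Same-numbered libraries did not deviate together (correlations of deviations from -0.107 to 0.07), so no block was used. Alternatives were other scaling factors, no filter, a replicate block, only the libraries compared, DESeq2 1.42.0, thinned counts, counts of copies added, an adjusted p limit of 0.05, a test against a 2-fold change, and each library left out in turn.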

Additional observations from a re-analysis of the deposited data

Results flagged for a closer look

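The response to OHT differed between lines, by the edgeR test of the difference itself, in 28 cases among the 34 genes. Each value is the log2 fold change after OHT in the first line minus that in the second. HDAC1-Y48E minus HDAC1-WT was -2.88 for Ldhb, -2.14 for Aldoc, -1.78 for Pdk2, -1.62 for Hk1, -1.56 for Gpi1, -1.40 for Tpi1, -1.34 for Aldoa, -1.28 for Hk2, -1.22 for Gapdh, -1.13 for Eno2, -0.82 for Slc2a3, -0.80 for Pcx, -0.75 for Pgk1, -0.69 for Eno1, -0.68 for Pkm, -0.60 for Pfkl and -0.56 for Slc2a1. HDAC1-E63R minus HDAC1-WT was -1.23 for Ldhb, -0.87 for Aldoc, -0.81 for Aldoa, -0.80 for Tpi1, -0.78 for Gpi1 and -0.62 for Pfkl. HDAC1-Y48E minus HDAC1-E63R was -1.65 for Ldhb, -1.27 for Aldoc, -1.16 for Hk1, -1.14 for Hk2 and -0.78 for Gpi1. All 28 were negative, and the 3 contrasts share libraries, so they are not separate evidence of one another. Groups of 3 are too small for a search for single outlying values.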

How the results depend on the processing

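Of 127 called values of single members, 82 passed the threshold under every alternative run, 45 were lost under at least 1, and 0 reversed. Scaling by relative log expression moved the median of all genes by at most 0.0426 on the log2 scale. Counts of called members changed by more than 1.5 times as follows, and the cause was not tested. Without the filter on low counts, the HDAC1-WT line had 1 member higher and 1 lower after OHT, HDAC1-Y48E against HDAC1-E63R had 9 lower responses, untreated HDAC1-E63R had 0 lower than HDAC1-WT, and untreated HDAC1-Y48E had 2 higher than HDAC1-E63R. With an adjusted p limit of 0.05, 1 member was higher after OHT with HDAC1-Y48E, 10 responses were lower for HDAC1-E63R against HDAC1-WT and 9 for HDAC1-Y48E against HDAC1-E63R, 2 members were lower in untreated HDAC1-E63R than HDAC1-WT cells, and untreated HDAC1-Y48E had 1 higher and 6 lower than HDAC1-E63R. DESeq2 gave 10 lower responses for HDAC1-E63R against HDAC1-WT, and 1 higher and 6 lower in untreated HDAC1-Y48E against HDAC1-E63R. With only the libraries compared in the model, where fewer libraries estimate the spread, the counts were 1 lower after OHT with HDAC1-WT, 3 lower with HDAC1-E63R, 3 lower responses for HDAC1-E63R against HDAC1-WT, 1 lower in untreated HDAC1-Y48E and 5 higher and 0 lower in untreated HDAC1-E63R against HDAC1-WT, 0 lower in untreated HDAC1-Y48E against HDAC1-E63R, 2 higher in OHT-treated HDAC1-Y48E and 11 higher in OHT-treated HDAC1-E63R against HDAC1-WT. A test against a 2-fold change left 1 DEG with HDAC1-E63R and 7 with HDAC1-Y48E.

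With a replicate block, untreated HDAC1-Y48E cells had 1 member lower than HDAC1-E63R cells, and the other counts moved by no more than 1.5 times. The numbers did not pair the libraries.

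Leaving out 1 library at a time gave 0 to 0 members higher and lower with HDAC1-WT after OHT, 0 higher and 10 to 19 lower with HDAC1-E63R (DEGs 1 to 3), and 0 to 1 higher and 21 to 24 lower with HDAC1-Y48E (DEGs 10 to 12). Lower responses numbered 15 to 18 for HDAC1-Y48E against HDAC1-WT, 3 to 12 for HDAC1-E63R against HDAC1-WT (12 without untreated HDAC1-E63R replicate 3, 3 without untreated HDAC1-WT replicate 1) and 5 to 13 for HDAC1-Y48E against HDAC1-E63R. Untreated HDAC1-Y48E had 9 to 11 members higher and 0 lower than HDAC1-WT, untreated HDAC1-E63R 14 to 20 higher and 0 to 1 lower, and untreated HDAC1-Y48E against HDAC1-E63R 0 to 1 higher and 1 to 6 lower. After OHT, HDAC1-Y48E had 0 to 1 higher and 13 to 15 lower than HDAC1-WT, and HDAC1-E63R 5 to 6 higher and 4 to 5 lower. Pgam2, Pfkfb2 and Pfkfb4, at under 15 CPM in every library, had the widest standard errors, and small changes in them were not detectable at this depth.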
